A study of Mus musculus with 18 samples.

Results

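RNA was sequenced from the BNST, the bed nucleus of the stria terminalis, of mice 24 h after a formalin injection and of control mice, and the comparison described here takes the 3 formalin and the 3 control libraries of the BNST, 6 of the 18 libraries of the series. All were wild-type male C57BL/6 mice of 6 to 8 weeks. The formalin group received 10 μL of 1% formalin in the hind paw, a chemical irritant that serves as a model of acute pain. The control mice received no injection according to the methods, whereas the figure legends of the study call them sham-treated, so whether an injection of vehicle was given is not settled. The remaining 12 libraries came from the medial prefrontal cortex (mPFC) of control and formalin mice and from both regions of mice given 10 μL of 50% complete Freund's adjuvant (CFA), collected after 72 h. They entered the same statistical fit, and the mPFC served for a test of regional difference. The question of the comparison was which transcripts of the BNST differ when mice show pain-related anxiety-like behavior.

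The BNST is a group of nuclei of the extended amygdala, mainly of GABAergic neurons, that takes part in sustained anxiety. It lies next to the lateral ventricle and below the striatum. Multiciliated ependymal cells line the ventricle, and inside it hangs the choroid plexus, the secretory epithelium that makes cerebrospinal fluid and releases transthyretin, the product of Ttr. A hand dissection of the BNST can therefore hold ventricle lining, choroid plexus or striatal tissue besides the nucleus itself. The choroid plexus was described with a list of 38 genes and the ependyma with a list of 137 genes of motile cilia, and the main counts below are given with and without these genes. In whole tissue, fewer cells of a type and less RNA per cell cannot be told apart.

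The 6 libraries held 14781315 to 21774670 counts. Of the genes in the table, 18994 passed the filter on low counts and were tested, among them all 38 choroid plexus genes and 134 of the 137 ependyma genes. Levels are given as CPM, the counts of a gene scaled to the size of its library, and changes as log2 fold changes of formalin minus control with their standard error (SE). A gene was called when its Benjamini-Hochberg adjusted p in edgeR's quasi-likelihood test was under 0.05 and its absolute log2 fold change above 0.5. Column names in the study's supplementary tables carry a mark L1, L2 or L3 whose meaning is not given in the sources used here. BNST control replicates 1 and 2 carried L1, formalin replicate 1 carried L3, and the remaining BNST libraries L2. Marks and groups thus overlap only in control replicate 3 and formalin replicates 2 and 3. One library of a group that was not compared stood apart, since CFA BNST replicate 2 held 31171 summed CPM of the choroid plexus genes against 809 and 659 in CFA replicates 1 and 3. It contributed to the estimate of the spread for every gene, so the count of calls over all genes and those of the main lists are given with and without it.

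The transcription factors of the RFX family switch on genes of motile cilia through a sequence named the X-box. Promoters of the ependyma genes were searched for its half-sites GTTNCC and GGNAAC, where N is any base, set 2 bases apart, which read the same on both strands. The search covered 250 bases before to 50 bases after the start of each gene in RefSeq (GRCm38.p6), and it allowed up to 2 mismatches in the fixed letters. Of the 137 ependyma genes, 111 had a promoter in this table and 59 of them (53.2%) held a match, against 15.8% of the 27025 genes with a promoter and 18% of the 12832 tested genes with one. With at most 1 mismatch the shares were 23.4% and, over all genes with a promoter, 2.89%. The choroid plexus genes held a match in 6 of 31 promoters (19.4%). These windows show the match in capitals for the 7 ependyma genes of highest CPM after formalin among those with at most 1 mismatch and with formalin libraries all above the control libraries, and for Odf3b, the called ependyma gene with a match. They were selected after the values were seen, and chromosomes 8 and 18 were not used.

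Cfap44 (chr16:44394747-44394810, plus strand): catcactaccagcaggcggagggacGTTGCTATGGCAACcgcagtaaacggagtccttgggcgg
Ccdc153 (chr9:44240500-44240563, plus strand): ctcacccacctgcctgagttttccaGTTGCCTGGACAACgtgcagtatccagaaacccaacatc
Crocc2 (chr1:93168387-93168450, plus strand): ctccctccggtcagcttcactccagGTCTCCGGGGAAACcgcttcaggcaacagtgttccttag
Spag16 (chr1:69826842-69826905, plus strand): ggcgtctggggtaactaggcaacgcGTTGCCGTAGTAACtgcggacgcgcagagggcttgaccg
Cfap206 (chr4:34730191-34730254, minus strand): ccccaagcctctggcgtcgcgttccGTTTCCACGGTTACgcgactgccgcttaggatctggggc
Cfap61 (chr2:145934751-145934814, plus strand): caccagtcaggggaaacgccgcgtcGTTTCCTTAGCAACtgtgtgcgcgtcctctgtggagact
Catip (chr1:74362092-74362155, plus strand): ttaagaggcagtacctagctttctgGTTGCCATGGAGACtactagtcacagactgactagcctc
Odf3b (chr15:89379263-89379326, minus strand): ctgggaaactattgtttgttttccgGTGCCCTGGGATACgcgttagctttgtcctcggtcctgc

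The match began before the annotated start in 51 of the 58 tested ependyma genes that held one, at a median of 20 bases before it. The median log2 fold change was 0.86 over these 58 genes and 0.72 over the 50 tested ependyma genes without a match. A match is a description of the letters in this window and was not tied to binding of any factor.

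Genes of the choroid plexus showed the highest median change of the 26 lists. All 38 were higher in the mean after formalin, with a median log2 fold change of 3.39 against −0.04 over all genes tested and 0.13 for the same genes in the mPFC. The summed level of the list was 460, 1824 and 444 CPM in control replicates 1, 2 and 3, and 6333, 16585 and 11224 CPM in formalin replicates 1, 2 and 3. The lowest formalin library therefore stood above the highest control library, and the ratio of the group means was 12.5. In the mPFC the list summed to 271 to 279 CPM in the control and 279 to 345 CPM in the formalin libraries.

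Ttr, which encodes the carrier of thyroxine and retinol-binding protein in cerebrospinal fluid, was at 2.35, 579 and 10.5 CPM in the control and at 2443, 7328 and 4692 CPM in the formalin libraries. The controls alone spanned more than the distance from control replicate 2 to formalin replicate 1 on a log scale. Its log2 fold change was 4.61 (SE 2.04) with an adjusted p of 0.236 in edgeR. Enpp2, which encodes the secreted enzyme autotaxin, was at 235, 675 and 192 CPM in controls and at 2534, 5486 and 3917 CPM after formalin. Kl, the gene of the co-receptor klotho, was at 5.07, 58.7 and 7.0 CPM in controls and at 159, 525 and 385 CPM after formalin. Prlr, the prolactin receptor, was at 27.7, 60.3 and 43.2 CPM in controls and at 126, 286 and 177 CPM after formalin. In each of these genes control replicate 2 was the highest control and formalin replicate 1 the lowest formalin library, and the groups did not overlap.

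The order of libraries was shared across the list. Control replicate 2 was the highest control in 34 of the 38 genes, formalin replicate 1 the lowest formalin library in all 38, and formalin replicate 2 the highest in 36. The 3 formalin libraries lay above the 3 controls in 36 of the 38 genes, the exceptions being Bmp7 and Slc29a4, against 11.6% of all genes tested. None of the 38 was called in the fit of 18 libraries, where 35 had an unadjusted p under 0.05 and the adjusted p ran from 0.0836 to 0.334. DESeq2 called 16 of them higher, against 1.73% of all genes, limma-voom called 0, against 0.321%, and edgeR without CFA BNST replicate 2 called 36 higher, against 4.06%. The median SE of the list fell from 1.17 to 0.49 when that library was left out, while the median log2 fold change remained at 3.39. Enpp2 then had an adjusted p of 0.000808, Prlr of 0.00127 and Kl of 0.0123, whereas Ttr at 0.0885 was still not called.

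**Figure D1:**
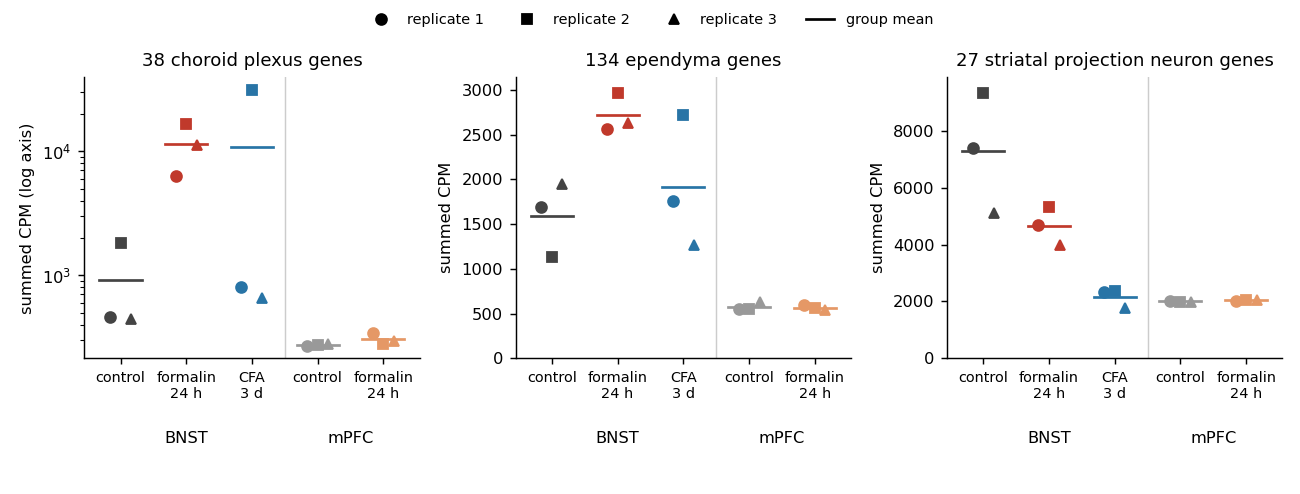
Summed CPM of the choroid plexus genes (left, log axis), the ependyma genes (middle) and the striatal projection neuron genes (right) in each BNST and mPFC library, with replicates as symbols and group means as lines. All formalin libraries of the BNST lie above the controls for the first 2 lists (6333 to 16585 against 444 to 1824 CPM, and 2566 to 2965 against 1131 to 1954 CPM), CFA replicate 2 is the highest choroid plexus value, and the striatal sums of formalin replicate 2 and control replicate 3 overlap.

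Genes of the ependyma were higher as well, by a smaller factor. In the mean 130 of 134 were higher after formalin, with a median log2 fold change of 0.87 in the BNST and −0.16 in the mPFC. The list summed to 1698, 1131 and 1954 CPM in control replicates 1, 2 and 3 and to 2566, 2965 and 2628 CPM in formalin replicates 1, 2 and 3, a ratio of means of 1.71. The formalin libraries lay above the controls in 107 of the 134 genes and below them in 1, 1700037H04Rik, against 11.6% and 10.8% of all genes tested. The libraries were not ordered as for the choroid plexus. Control replicate 2, the highest control for the choroid plexus genes, was the lowest control in 118 of the 134 ependyma genes.

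Among the 134 ependyma genes 5 were called higher and 0 lower, which is to be read against 0.195% of all genes called higher and 0.105% called lower. Odf3b, a relative of the outer dense fibre proteins of sperm tails, was at 8.59, 6.86 and 8.79 CPM in controls and at 14.6, 15.6 and 15.7 CPM after formalin, a log2 fold change of 0.92 (SE 0.18, adjusted p = 0.042 in edgeR). Fam81b was at 0.68, 0.74 and 0.93 CPM in controls and at 4.30, 3.85 and 3.83 CPM after formalin, and rose by 2.34 on the log2 scale (SE 0.37, adjusted p = 0.0226 in edgeR). Both groups were tight in these 2 genes and far apart. Vwa3b rose by 1.26 from 2.66 to 4.27 CPM in the controls to 6.42 to 9.90 CPM after formalin. 1700016K19Rik rose by 1.29, from 1.81 to 3.22 CPM in the controls to 5.42 to 7.48 CPM. Tbata rose by 2.95, from controls of 0.113 to 0.310 CPM to 3.83, 0.705 and 1.28 CPM, so its fold rests on few counts and mostly on formalin replicate 1. Its mean in the mPFC controls, 5.07 CPM, was above all of these values, so in these data it is not particular to ventricle tissue.

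The ependyma genes of highest CPM did not pass. Cfap65, a protein of the ciliary axoneme, was at 38.6, 26.3 and 49.2 CPM in controls and at 68.7, 92.96 and 74.1 CPM after formalin (log2 fold change 1.05, adjusted p = 0.0874 in edgeR). Dnah6, a heavy chain of the dynein arms that move cilia, was at 48.3, 24.0 and 52.4 CPM in controls and at 85.0, 100.3 and 87.4 CPM after formalin (1.13, adjusted p = 0.162 in edgeR). Cfap44, whose promoter window is given above, was at 36.4, 26.0 and 56.1 CPM in controls and at 69.8, 78.9 and 67.2 CPM after formalin (0.87, adjusted p = 0.186 in edgeR). In all 3 genes control replicate 2 was the lowest library and the groups did not overlap. Rfx3, itself an RFX factor, had a log2 fold change of 0.21, with overlap of the groups. Rfx2, also an RFX factor, had 0.86 (adjusted p = 0.125 in edgeR) and Foxj1 1.01 (0.107), both without overlap. Neither was called with all 18 libraries. Both were called without CFA BNST replicate 2 (adjusted p of 0.00707 and 0.0059 in edgeR). Without CFA BNST replicate 2, 56 of the 134 ependyma genes were called, all higher, against 4.06% of all genes called higher. Among the 56 were Cfap65, Catip, Cfap61, Spag16 and Cfap206, while Dnah6 (adjusted p = 0.0545 in edgeR) and Cfap44 (0.0787) were not called.

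Over all genes, 57 were called between formalin and control in the BNST, which is 0.300% of the genes tested, with 37 higher (0.195%) and 20 lower (0.105%). Without the choroid plexus and ependyma genes 52 were called, 32 higher and 20 lower. The adjusted p of the 57 genes ran from 0.0189 to 0.0492, so all lay close to the threshold. The formalin libraries lay above the controls in 2205 genes (11.6%) and below them in 2043 (10.8%), and outside the choroid plexus and ependyma lists in 2062 and 2042. When the choroid plexus and ependyma genes were removed before the fit, 38 genes (0.202%) were called, 24 higher and 14 lower, and all 38 were among the 57.

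The count depended on single libraries, including libraries that were not compared. Without CFA BNST replicate 2, 898 genes (4.73%) were called, 772 higher (4.06%) and 126 lower (0.663%), of which 806 lay outside the choroid plexus and ependyma lists, and all 57 were among them. Without CFA BNST replicates 1 and 3 the counts were 46 and 124. Leaving out control BNST replicates 1, 2 and 3 gave 39, 6 and 315 calls, and leaving out formalin BNST replicates 1, 2 and 3 gave 2, 9 and 2. Leaving out 1 mPFC library gave 3, 3 and 27 calls for control replicates 1, 2 and 3, 3, 3 and 4 for formalin, and 3, 4 and 4 for CFA. Of the 57 genes, Rara alone was called in all 18 of these fits, Gnal and Fam81b were called in 15, and 35 of the 37 higher and 19 of the 20 lower genes were called in fewer than 9.

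Other tools and settings moved the count too. DESeq2 called 403 genes (2.12%), 329 higher and 74 lower, and limma-voom called 61. edgeR on the 6 BNST libraries alone called 214 genes (1.21%), 209 higher (1.19%) and 5 lower (0.0284%), with 21 of the 57 among them. On the 9 BNST libraries alone it called 1 gene, and 0 of the 57, Rara included, were called. RLE size factors in place of TMM gave 39 higher and 11 lower calls, a share of 78.0% higher against 64.9%. Within the L2 libraries, where the single BNST control library is assumed to vary like the other groups, 397 genes (2.09%) were called, none of them of the choroid plexus or ependyma lists, and 11 of the 57 were among them. With the log2 summed level of the choroid plexus genes as a covariate 4 genes (0.0211%) were called, all lower, and with that of the ependyma genes 8 (0.0421%), and in both cases 0 of the 57 were among them. In these fits the level of the covariate and the group move together across the BNST libraries.

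**Figure D2:**
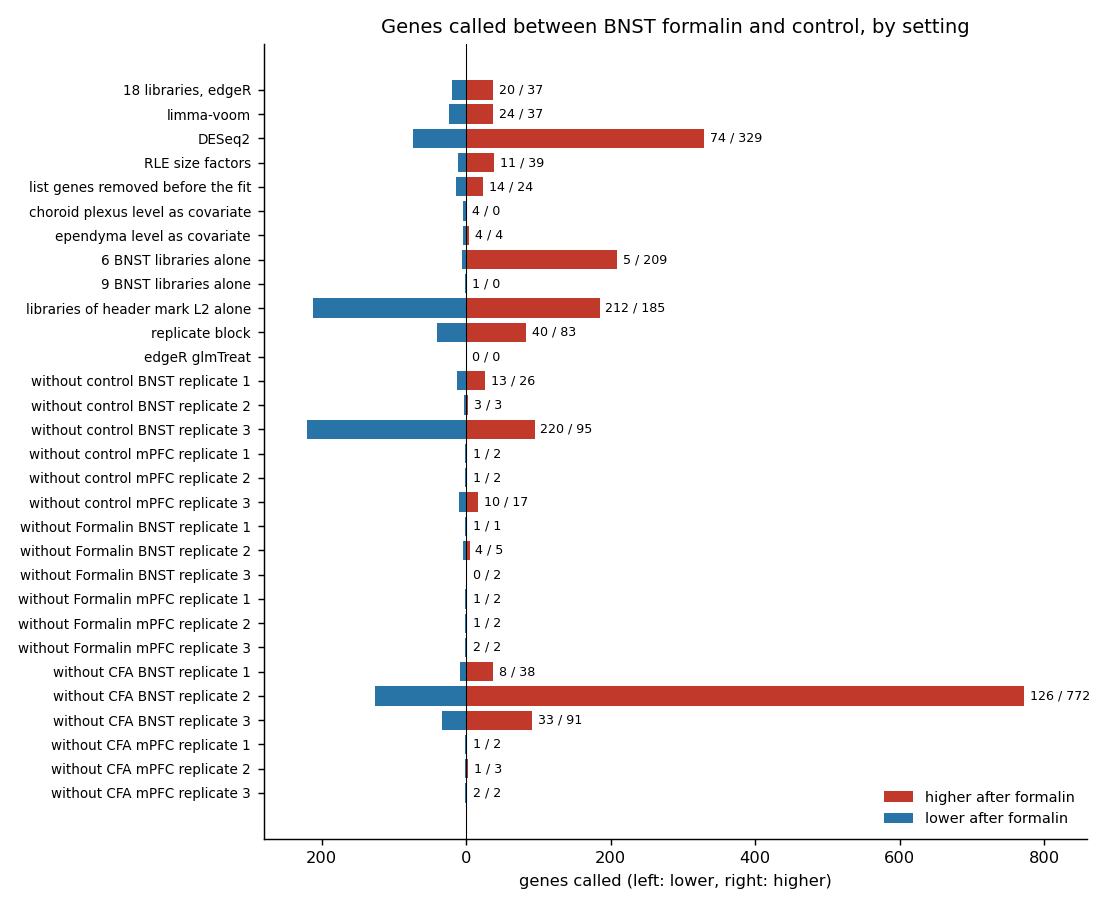
Number of genes called higher (right, red) and lower (left, blue) between BNST formalin and control under each setting, with both counts beside each bar as lower / higher. The count was 57 with all 18 libraries, 898 without CFA BNST replicate 2 and 2 without formalin BNST replicate 1.

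**Figure D3:**
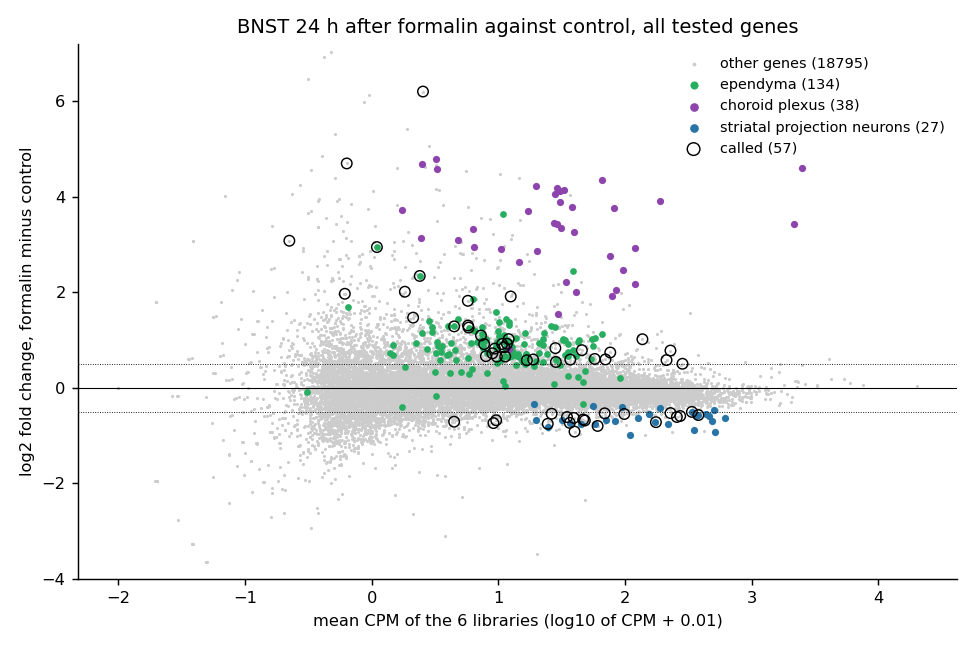
Log2 fold change of formalin minus control against mean CPM of the 6 BNST libraries (log10 of CPM + 0.01), 1 point per gene tested, with 4 genes outside the plotted range. The choroid plexus genes (purple, median 3.39) and ependyma genes (green, median 0.87) lie above 0, the striatal projection neuron genes (blue, median −0.67) below it, and circles mark the 57 called genes.

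Several of the genes called lower are known from neurons. The list of striatal projection neurons, the GABAergic output neurons of the striatum and nucleus accumbens, held 3 called members of 27 tested. All 3 were lower, against 0.105% of all genes called lower. All 27 were lower in the mean, with a median log2 fold change of −0.67 against 0.02 in the mPFC. Gnal, which encodes the G protein subunit that couples dopamine and adenosine receptors to adenylyl cyclase (chr18:67088216-67226792, plus strand, GRCm38), was at 437, 492 and 433 CPM in controls and at 300.0, 344 and 273 CPM after formalin. It fell by 0.57 on the log2 scale (SE 0.09, adjusted p = 0.0226 in edgeR), and the groups did not overlap. Ptpn5, the striatum-enriched tyrosine phosphatase, was at 361, 439 and 387 CPM in controls and at 297, 306 and 234 CPM after formalin, and fell by 0.51 (adjusted p = 0.048 in edgeR). Actn2, an actin-binding protein of spines, was at 44.1, 58.6 and 34.6 CPM in controls and at 28.4, 31.3 and 22.9 CPM after formalin, and fell by 0.73 (adjusted p = 0.0456 in edgeR).

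The summed level of the striatal genes did not separate the groups. It was 7401, 9314 and 5111 CPM in control replicates 1, 2 and 3 and 4677, 5303 and 3994 CPM in formalin replicates 1, 2 and 3, so control replicate 3 lay below formalin replicate 2. In 6 of the 27 genes (22.2%) all formalin libraries lay below the controls, against 10.8% of all genes tested. Without CFA BNST replicate 2, 6 of the 27 were called, all lower, against 0.663% of all genes. Adcy5, the main striatal adenylyl cyclase, was at 806, 919 and 526 CPM in controls and at 475, 537 and 442 CPM after formalin (log2 fold change −0.63, adjusted p = 0.0572 in edgeR). Pde10a, a phosphodiesterase of the same neurons, was at 651, 1018 and 369 CPM in controls and at 371, 413 and 283 CPM after formalin (−0.93, adjusted p = 0.11 in edgeR). Pde1b (−0.69) and Penk (−0.60) had adjusted p-values of 0.101 and 0.159 in edgeR. Control replicate 3 was the lowest control in 22 of the 27 genes. Within the L2 libraries, that is control replicate 3 against formalin replicates 2 and 3, the median of the list was −0.08, with 21 of 27 genes lower and 0 called. The part of striatal tissue in the libraries was not tested.

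Receptor genes of the same neurons followed this order without passing. Adora2a, the adenosine receptor of indirect pathway neurons, was at 145, 212 and 78.7 CPM in controls and at 69.5, 89.0 and 61.2 CPM after formalin (log2 fold change −0.99, adjusted p = 0.204 in edgeR). Drd1 and Drd2, the dopamine receptors of the direct and indirect pathways, had log2 fold changes of −0.71 and −0.67 with adjusted p-values of 0.202 and 0.219 in edgeR. Control replicate 3 overlapped the formalin libraries in all 3 genes. Chrna3, a nicotinic receptor subunit, was at 2.29 to 4.54 CPM in controls and 2.33 to 3.32 CPM after formalin.

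Other called genes act at synapses or in excitability. Cnr1, the cannabinoid receptor of presynaptic terminals, was at 210.5, 261 and 184 CPM in controls and at 171, 114 and 113 CPM after formalin, and fell by 0.72 (SE 0.14, adjusted p = 0.0446 in edgeR). Ryr1, a calcium release channel of the endoplasmic reticulum, was at 52.2, 66.2 and 38.3 CPM in controls and at 29.8, 31.9 and 21.5 CPM after formalin, and fell by 0.92 (SE 0.16, adjusted p = 0.0399 in edgeR). Lrrtm3, a synaptic adhesion protein, was at 55.8, 63.7 and 52.8 CPM in controls and at 31.3, 37.2 and 40.0 CPM after formalin, and fell by 0.66 (adjusted p = 0.0399 in edgeR). Synpr, a synaptic vesicle protein, was at 117, 133 and 102 CPM in controls and at 89.6, 86.1 and 64.9 CPM after formalin, and fell by 0.55 (adjusted p = 0.048 in edgeR). Slc5a7, the choline transporter that marks cholinergic neurons, was at 33.5, 28.2 and 30.9 CPM in controls and at 14.4, 22.1 and 18.3 CPM after formalin, and fell by 0.75 (adjusted p = 0.0446 in edgeR). The groups did not overlap in any of these genes.

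Of 34 ion channel genes 1 was called, Ryr1, and 32 were lower in the mean (median −0.31), 13 of them (38.2%) without overlap. Of 36 genes of synaptic vesicles and transmission 3 were called lower (Cnr1, Lrrtm3 and Synpr) and 32 were lower in the mean (median −0.26), 11 (30.6%) without overlap. Over all genes tested 0.105% were called lower and 10.8% lay lower without overlap. With CFA BNST replicate 2 left out, 5 ion channel genes and 4 synaptic genes were called, all lower, against 0.663% of all genes. The remaining genes called lower by name include Gprin3, a G protein-regulated gene of neurite outgrowth, with controls of 59.5 to 107 CPM and formalin values of 37.6 to 48.4 CPM, and Kif17, a kinesin that carries NMDA receptor vesicles, with 41.9 to 55.3 and 28.6 to 35.4 CPM. Caln1, a calcium-binding protein, fell from 262 to 361 CPM to 173 to 224 CPM, and Dgkb, a diacylglycerol kinase, from 314 to 345 CPM to 176 to 249.9 CPM. Lzts3, a postsynaptic protein, fell from 211 to 317 CPM to 175 to 207 CPM, with control replicate 3 and formalin replicate 2 side by side. Their log2 fold changes ran from −0.80 for Gprin3 to −0.53 for Lzts3.

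The genes called higher belonged to several cell types and functions. Rara, which encodes the retinoic acid receptor alpha (chr11:98927818-98974942, plus strand, GRCm38), had the lowest adjusted p of all genes. It was at 5.31, 4.76 and 3.84 CPM in controls and at 12.7, 9.0 and 8.17 CPM after formalin, and rose by 1.09 on the log2 scale (SE 0.16, adjusted p = 0.0189 in edgeR, at most 0.0467 when any 1 library was left out). Neat1, a long noncoding RNA that scaffolds nuclear paraspeckles, was at 89.1, 94.5 and 88.8 CPM in controls and at 175, 218 and 159 CPM after formalin, and rose by 1.02 (SE 0.18, adjusted p = 0.0402 in edgeR). Its highest control lay far below its lowest formalin library. Of 19 retinoid genes tested, Rara and Rlbp1 were called, both higher, against 0.195% of all genes called higher. The median of the list was 0.28, with 11 genes higher and 8 lower in the mean, the lowest at −0.88. Ttr, which is also on the choroid plexus list, and Aldh1a1 had log2 fold changes of 4.61 and 0.72 without being called.

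Genes of glia and vessels made up part of the calls. Of 25 oligodendrocyte genes 3 were called, all higher, and all 25 were higher in the mean (median 0.49 in the BNST and −0.44 in the mPFC), 15 (60%) without overlap. Over all genes tested 0.195% were called higher and 11.6% lay higher without overlap. In the fit without CFA BNST replicate 2, 5 of the 25 were called, all higher, against 4.06% of all genes. Car2, the carbonic anhydrase of oligodendrocytes, was at 167, 168 and 170.3 CPM in controls and at 294, 295 and 278 CPM after formalin, and rose by 0.78 (SE 0.16, adjusted p = 0.0456 in edgeR). The 3 libraries of each group lay close together and the groups far apart. Padi2, which converts arginine to citrulline in myelin proteins, was at 36.3, 32.6 and 31.6 CPM in controls and at 72.5, 47.8 and 53.3 CPM after formalin, and rose by 0.79. Hhatl rose by 0.66, from 6.80 to 9.91 CPM to 13.1 to 14.4 CPM. The abundant myelin gene Mbp (log2 fold change 0.61, adjusted p = 0.14 in edgeR) had no overlap but did not pass. The list summed to 11813, 8186 and 8445 CPM in controls and to 14442, 11918.5 and 14444.5 CPM after formalin, with formalin replicate 2 just above control replicate 1.

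Aqp4, the water channel of astrocyte endfeet, was at 150.4, 181 and 180.3 CPM in controls and at 271, 230.1 and 264 CPM after formalin, and rose by 0.58 (adjusted p = 0.0492 in edgeR). Rlbp1, a retinaldehyde-binding protein of glia, rose by 0.72, from 6.18 to 7.12 CPM to 9.70 to 12.8 CPM. These were the 2 called genes of 25 on the astrocyte list, whose median was 0.07, against 0.195% of all genes called higher. Slc2a1, the glucose transporter of the blood-brain barrier, was at 59.0, 52.4 and 56.3 CPM in controls and at 82.6, 84.1 and 86.5 CPM after formalin, and rose by 0.59 (adjusted p = 0.0399 in edgeR). It was the called gene of 18 endothelial genes, against 0.195% of all genes called higher. Their median was 0.05, with 10 higher and 8 lower in the mean (log2 fold changes of −0.42 to 1.38). In 5 of the 18 (27.8%) the formalin libraries lay above the controls, against 11.6% of all genes. The list summed to 305, 369 and 326 CPM in controls, to 452, 518 and 529.9 CPM after formalin and to 377, 694 and 293 CPM in CFA replicates 1, 2 and 3, so the groups compared did not overlap. Without CFA BNST replicate 2, 3 of the endothelial and 6 of the astrocyte genes were called higher, against 4.06% of all genes.

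Further genes called higher encode receptors, enzymes and a channel, and were gathered here after their values were seen. Fgfr2, a fibroblast growth factor receptor, was at 61.6, 49.6 and 60.9 CPM in controls and at 97.4, 93.8 and 96.0 CPM after formalin, and rose by 0.74 (SE 0.13, adjusted p = 0.0399 in edgeR). Fgf18, which encodes a ligand of this family, rose by 1.47, from 0.867 to 1.36 CPM to 3.01 to 3.19 CPM. S1pr3, a receptor of sphingosine 1-phosphate, was at 6.29 to 7.23 CPM in controls and 11.0 to 12.8 CPM after formalin (0.82). Mapkapk2, a kinase downstream of p38, was at 22.0 to 24.4 CPM in controls and 31.3 to 35.2 CPM after formalin (0.54). Dock1, an activator of the GTPase Rac, rose by 0.59 and Itga4, the integrin alpha 4 chain, by 0.92. Scn7a, the sodium channel that senses extracellular sodium, rose by 0.85, from 6.69 to 9.41 CPM to 13.1 to 15.5 CPM. Its log2 fold change in the mPFC was 0.73, and a difference between regions was not called. Scd1, the desaturase that makes monounsaturated fatty acids, was at 205, 257 and 244 CPM in controls and at 342, 324 and 336 CPM after formalin, and rose by 0.50 (adjusted p = 0.0402 in edgeR). It was the called gene of 24 on the lipid and cholesterol list, against 0.195% of all genes called higher.

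Some large folds among the called genes rested on low counts. Lct, which encodes lactase, was at 0, 0.0567 and 0.124 CPM in controls and at 12.3, 2.28 and 0.425 CPM after formalin, so its fitted log2 fold change of 6.20 depends on the handling of near-zero counts and mostly on formalin replicate 1. Gm32468, Itgad, Podn and Gm4544, all below 5 CPM in every one of the 6 libraries, had fitted log2 fold changes of 4.70, 3.08, 2.01 and 1.97. Ccdc3, a secreted protein, was at 5.75, 2.78 and 7.24 CPM in controls and at 29.9, 16.2 and 13.4 CPM after formalin (1.91). Cnmd, the angiogenesis inhibitor chondromodulin, was at 2.17 to 3.03 CPM in controls and 6.80 to 11.2 CPM after formalin (1.82). Trip10 rose by 1.30.

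The values of CFA BNST replicate 2 moved with the genes called higher. It was the highest CFA library in 33 of the 37 genes called higher (89.2%), in 2 of the 20 called lower and in 39.7% of all genes tested. Car2, for example, was at 245, 382 and 196 CPM in CFA replicates 1, 2 and 3, and Slc2a1 at 85.9, 103 and 70.01 CPM. The part of choroid plexus or ependymal tissue in the change of these genes was not tested. Most called genes also set CFA apart from the same 3 controls. All 3 CFA libraries lay above the controls in 24 of the 37 genes called higher. They lay below the controls in 19 of the 20 called lower. Over all 18994 genes tested the counts were 2921 above and 3058 below.

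**Figure D4:**
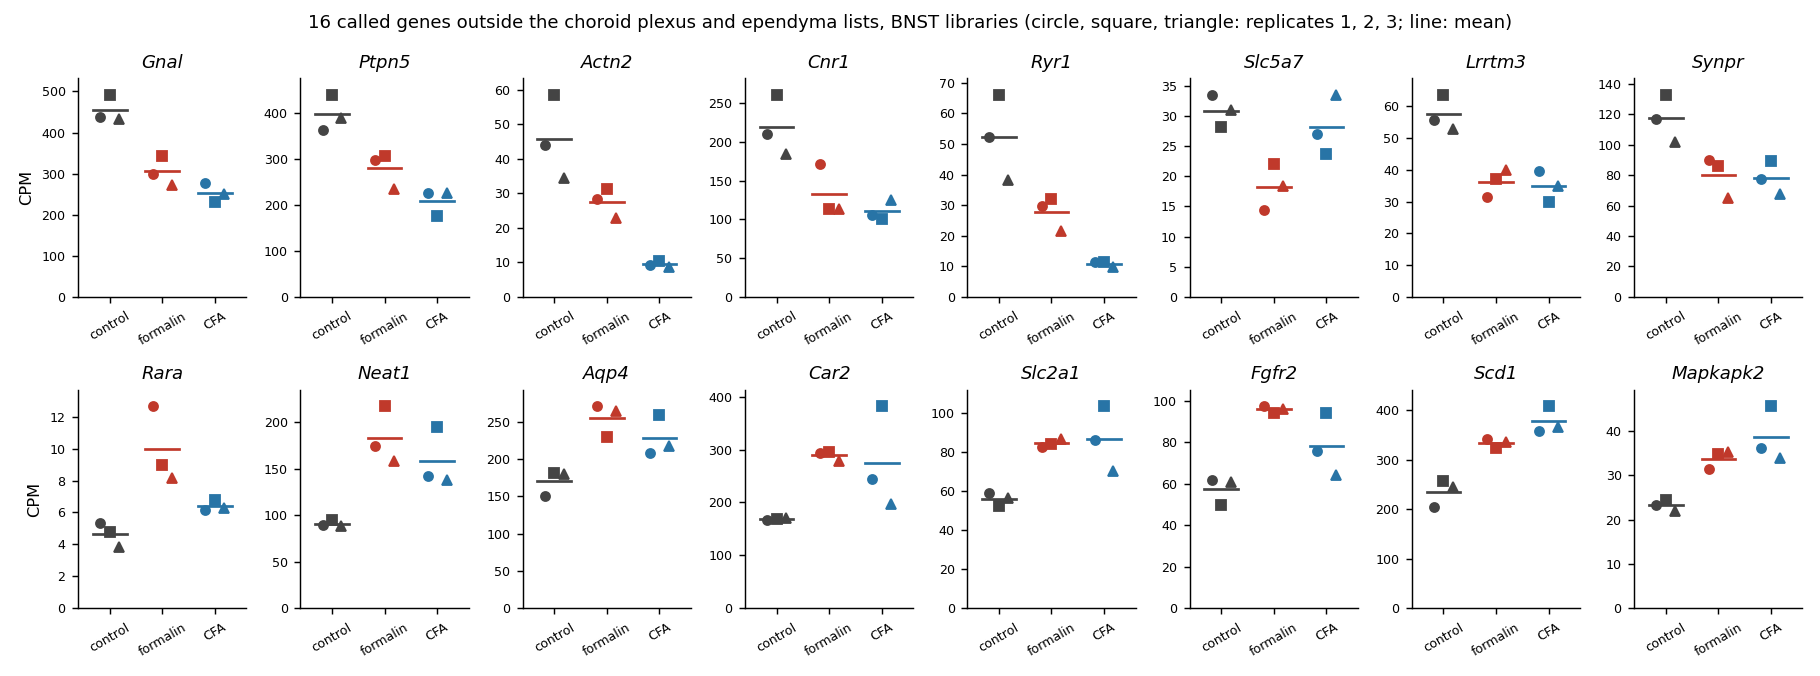
CPM of 16 called genes outside the choroid plexus and ependyma lists in each BNST library (control, formalin at 24 h, CFA at 72 h), with replicates as symbols and lines at the group means, each axis starting at 0. The formalin libraries of the 8 genes in the upper row lie below and those of the 8 genes in the lower row above the controls, for example Gnal at 273 to 344 against 433 to 492 CPM and Car2 at 278 to 295 against 167 to 170.3 CPM.

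The remaining lists held 0 called genes unless stated. Of 22 inflammatory and interferon genes 20 were higher in the mean (median 0.54), 11 (50%) lay higher without overlap, against 11.6% of all genes, and 0 were called. The fit without CFA BNST replicate 2 called 5 of the 22 higher, against 4.06% of all genes. Vcam1, an adhesion molecule that endothelium and choroid plexus also express, was at 21.3, 29.2 and 28.2 CPM in controls and at 44.9, 56.9 and 52.1 CPM after formalin (0.97, adjusted p = 0.291 in edgeR), and it was at 132 CPM in CFA replicate 2. Without that library its adjusted p was 7.92e-05. H2-K1 had a log2 fold change of 0.58. Sgk1, a kinase that glucocorticoids induce, was at 60.3, 60.2 and 42.9 CPM in controls and at 109, 114 and 116 CPM after formalin (1.05, adjusted p = 0.0616 in edgeR, 5.67e-05 without CFA replicate 2), whereas the median of 16 glucocorticoid-responsive genes was 0.08. Microglia genes had a median of 0.05.

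Of 17 immediate early genes 15 were lower in the mean (median −0.42 in the BNST and −0.37 in the mPFC), and 3 (17.6%) lay lower without overlap, against 10.8% of all genes. Of these 17, 1 was called lower without CFA BNST replicate 2, against 0.663% of all genes. Fos, which rises with neuronal activity within the hour, was at 12.8, 31.0 and 56.8 CPM in controls and at 22.4, 9.22 and 24.8 CPM after formalin (log2 fold change −0.83, adjusted p = 0.332 in edgeR), so the groups overlapped. BNST peptide and steroid signalling genes held 1 called member of 28, Cnr1, against 0.105% of all genes called lower, and had a median of −0.19. Crh, corticotropin-releasing hormone, was at 4.57 to 9.66 CPM in controls and 4.66 to 6.51 CPM after formalin. Oxt, oxytocin, was at 5.50, 24.8 and 1.86 CPM in controls and at 1.59, 2.98 and 5.32 CPM after formalin, with an adjusted p of 0.287 in edgeR. The GABAergic neuron markers Gad1 and Gad2 had log2 fold changes of −0.27 and −0.25. Heat shock (median −0.02), circadian (−0.12) and mitochondrially encoded genes (0.06) were near the value of all genes. Markers of neighbouring or other cells had medians of −0.29 (hypothalamus), −0.42 (habenula and thalamus), 0.08 (oligodendrocyte precursors), 0.16 (mural cells and fibroblasts) and 0.08 (neuroblasts and dividing cells).

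In other lists a single BNST library stood apart. Cortical pyramidal neuron genes summed to 3046 CPM in formalin replicate 1 and to 1465 to 2121 CPM in the other 5 libraries, and Slc17a7, the vesicular glutamate transporter of cortical neurons, was at 377 CPM there against 11.7 to 121 CPM elsewhere. The 3 haemoglobin genes summed to 21.7 CPM in formalin replicate 1 and to at most 4.14 CPM in the other 5 libraries. In the mPFC they summed to 16.1 CPM in formalin replicate 1, which carries animal number 1 and mark L2. The remaining control and formalin libraries of the mPFC held 1.79 to 3.92 CPM. Formalin BNST replicate 1 carries animal number 1 too and is the only library of mark L3. Without it 2 genes were called, as given above.

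**Figure D5:**
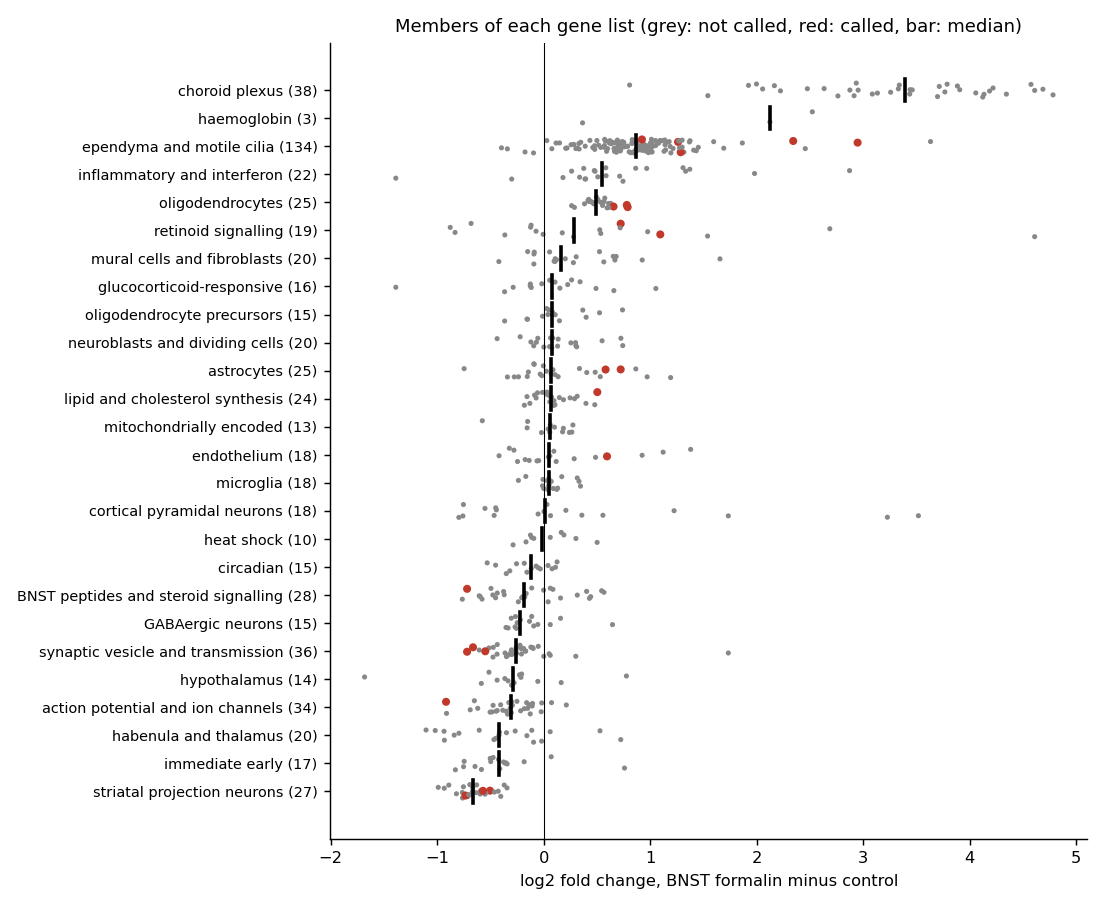
Log2 fold change of every tested member of the 26 gene lists in the BNST, ordered by list median (black bar), with called genes in red and the number tested in brackets. The choroid plexus list has the highest median (3.39) and the striatal projection neuron list the lowest (−0.67).

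Whether a change differed between regions was tested as the formalin change in the BNST minus that in the mPFC. The supplementary column names give animal numbers 1, 2 and 4 to the BNST and 2, 3 and 4 to the mPFC controls, and 1, 2 and 3 to both formalin groups. Per the methods both regions were taken from each brain, and the numbers match across regions for formalin and for controls 2 and 4. The test treats all libraries as independent and leaves this pairing out. In all, 30 genes (0.158%) were called, 0 of them on the choroid plexus and ependyma lists, and 7 of the 57 genes called in the BNST were among them. The 0 does not show that the list genes changed alike in both regions, since few calls were made and the difference was imprecise. Its SE was 1.47 for Enpp2, 2.35 for Kl, 4.50 for Ttr and 2.04 for Prlr. List medians were 3.39 (BNST) against 0.13 (mPFC) for the choroid plexus, and 0.87 against −0.16 for the ependyma. Neat1 rose in the BNST and had a log2 fold change of −0.70 in the mPFC, a difference of 1.72 (SE 0.26, adjusted p = 0.0215 in edgeR). Ttyh2, a membrane protein of the tweety family, differed by 1.01. Dgkb (−1.01), Synpr (−1.01), Cdh7, a cadherin (−0.94), Lrrtm3 (−0.88) and Dact2 (−0.71) were lower in the BNST relative to their mPFC change, which was 0.17 to 0.46 on the log2 scale. For Rara (0.73, adjusted p = 0.146 in edgeR) and Gnal (−0.62, adjusted p = 0.0545 in edgeR) a difference between regions was not called. Without CFA BNST replicate 2 the number of genes with a regional difference was 528, and without control mPFC replicate 2 or 3, formalin BNST replicate 3 or formalin mPFC replicate 2 it was 0. How many of the 528 lay on the choroid plexus and ependyma lists is not given here.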

How the data were processed

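Messenger RNA was measured in 18 libraries (6 groups of 3), each from 1 region of 1 brain. The 6 BNST libraries of formalin and control mice were compared. The deposited table holds raw read counts per gene, which the authors made, per the submitters' processing notes, with Trimmomatic 0.39, HISAT2 2.2.1, SAMtools and featureCounts 2.0.1 on mm10. The strand setting is not given in the sources used here, so a gene and an antisense partner cannot be told apart. Of 55401 identifiers, 260 had no gene model in GENCODE M21 (GRCm38), 792 were matched without their version suffix, and all columns were used. Columns of fold changes and p-values in the authors' supplementary tables were not used.

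Tests were run on the counts in edgeR 4.0.16 (R 4.3.3). filterByExpr (minimum count 10, minimum total 15) kept 18994 genes with 99.9% of the counts. TMM scaled the libraries, and a robust quasi-likelihood fit held all 18 libraries and 6 groups (12 residual degrees of freedom). Benjamini-Hochberg adjustment covered all genes tested, and the thresholds (0.05 and 0.5) are those of the study. The script was tested on simulated data. Alternatives used DESeq2 1.42.0, limma 3.58.1, RLE factors, other filters, fewer libraries, a replicate block, covariates, glmTreat and leaving out each library.

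Genes were named by a rule: the 12 higher and 12 lower called genes with the largest change, at least 5 CPM and no overlap; genes called by 4 fits; called members and the 4 members of highest CPM of each list; 7 genes named in advance; and up to 10 called genes of highest CPM outside the choroid plexus and ependyma lists. Further called genes and the promoter windows were chosen after their values were seen, and some genes that the rule takes are not reported here. The comparison and all lists were chosen with earlier results of these data known. The libraries held 14781315 to 23408503 counts, and libraries of 1 group differed by more than sampling noise (chi-square per degree of freedom of at least 3.64). This value ran from 3.64 to 10.3 in the mPFC groups and from 7.68 to 75.0 in the BNST groups.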

Additional observations from a re-analysis of the deposited data

Results flagged for a closer look

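Among the called genes, 7 differed in their formalin change between the BNST and the mPFC by the edgeR interaction test, given as the log2 change in the BNST minus that in the mPFC with the adjusted p of edgeR. Neat1 differed by 1.72 (0.0215), Dgkb by −1.01 (0.0204), Synpr by −1.01 (0.023), Lrrtm3 by −0.88 (0.0325), Ttyh2 by 1.01 (0.0277), Cdh7 by −0.94 (0.0338) and Dact2 by −0.71 (0.0338). The test treated all libraries as independent, although per the methods both regions were taken from each brain.

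CFA BNST replicate 2, a library outside the comparison, held 31171 summed CPM of the 38 choroid plexus genes, above the 444 to 1824 CPM of the BNST controls and above every formalin library.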

How the results depend on the processing

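Under alternatives that kept all 18 libraries, the 57 calls (52 outside the choroid plexus and ependyma lists) became 403 (347) with DESeq2, 123 (114) with the replicate block, 92 (86) without a minimum fold change, 4 (4) with the choroid plexus covariate, 8 (8) with the ependyma covariate and 0 (0) with edgeR's glmTreat, which had 772 genes at an unadjusted p under 0.05. Fits of fewer libraries gave 1 (1) for the 9 BNST libraries, 214 (191) for the 6 compared and 397 (397) for mark L2. Limma-voom, RLE factors, other filters and removal of list genes gave 38 to 84 calls. Leaving out 1 library gave 2 to 898 calls and 2 to 806 outside the lists, and 0 to 528 regional differences in place of 30. The block gave 94 regional differences. Within each region it joined control, formalin and CFA libraries of the same replicate number, which came from different mice. The replicate numbers were not used to pair libraries: 0 of 6 BNST libraries correlated best with their own number, and same-numbered residuals correlated at −0.05, −0.03 and −0.19. Direction turned with the ependyma covariate for Ttr (−0.17), Cfap44 (−0.15), Dnah6 (−0.0884), Pltp (−0.0507), Vcam1 (−0.32) and Oxt (0.36), with the choroid plexus covariate for Prlr (−0.28) and Vcam1 (−0.58), and within mark L2 for Drd2 (0.077), Oxt (1.19) and Pde1b (0.017). The causes were not tested. Cfap44 and Dnah6 are part of the ependyma sum and Prlr of the choroid plexus sum, so their values under that covariate are not independent of it. Under its own covariate the median log2 fold change was −0.01 for the choroid plexus list and −0.02 for the ependyma list. Over 61 genes and all alternatives, 1068 values kept their direction and side of the thresholds, 769 fell short of them, 30 newly passed and 11 turned.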
